A study of Mus musculus with 6 samples.

Results

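The genes described here are 46 members of the bone morphogenetic protein (BMP) and transforming growth factor beta (TGF-beta) pathways. They are ligands, receptors, Smad proteins, extracellular antagonists and targets, taken from a list of names and read from the row of the deposited expression table that carries each name, or from the row with the highest mean where several do. All 46 were found among the 44519 rows, and 40 reached the minimum for testing, 1 FPKM (fragments scaled to transcript length and library size) in at least 3 libraries. Samples were GFP-positive horizontal basal cells (HBCs), the reserve stem cells at the base of the olfactory epithelium, sorted from mouse olfactory neuroepithelium and profiled by bulk RNA sequencing. All mice carried the Krt17-EGFP reporter, which marks cells that express keratin 17. Controls carried the reporter alone and are labelled as not given doxycycline (control 1, 2 and 4 by replicate number). The TNF group also carried Cyp2g1-rtTA, whose Cyp2g1 promoter is active in sustentacular cells, and TRE-TNF, and had 6 weeks of doxycycline-induced inflammation (TNF 1, TNF 3 and TNF 4). The labels used here give no age, and no statement of whether a library came from 1 animal. Genotype, doxycycline and inflammation differ together between the groups and cannot be told apart.

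Ligands of this superfamily bind paired type I and type II receptor kinases, which phosphorylate receptor Smads (Smad1, Smad5 and Smad9 after BMP, Smad2 and Smad3 after TGF-beta or activin). These enter the nucleus with Smad4. Inhibitory Smads and secreted binding proteins limit the signal, latent TGF-beta binding proteins hold the ligand in the matrix, and the Id genes are classic BMP targets. In stratified epithelia BMP and TGF-beta signals are known as brakes on basal cell division.

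The highest control levels of the members lay in the Id genes, which moved in different directions, and the promoters of 3 of them are shown here with those of Smad6 and Tgfbi, the genes of an inhibitory Smad and a TGF-beta-induced matrix protein that rose in every TNF library. Each is the RefSeq window (GRCm38.p6) from 250 bases before to 50 after the start site, in the direction of the gene. Capitals mark GGCGCC, a GC-rich element that BMP Smads bind, and CAGAC or its reverse complement GTCTG, the Smad box. The windows are Id2 at chr12:25096043-25096342 (minus strand), Id3 at chr4:136143572-136143871 (plus), Id4 at chr13:48260866-48261165 (plus), Smad6 at chr9:64022010-64022309 (minus) and Tgfbi at chr13:56609336-56609635 (plus).
Id2: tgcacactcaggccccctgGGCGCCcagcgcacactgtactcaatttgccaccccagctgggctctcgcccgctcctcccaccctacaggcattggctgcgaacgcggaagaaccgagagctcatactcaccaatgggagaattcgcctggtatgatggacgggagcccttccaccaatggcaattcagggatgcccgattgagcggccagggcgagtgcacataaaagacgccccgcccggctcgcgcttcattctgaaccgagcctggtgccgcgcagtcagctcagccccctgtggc
Id3: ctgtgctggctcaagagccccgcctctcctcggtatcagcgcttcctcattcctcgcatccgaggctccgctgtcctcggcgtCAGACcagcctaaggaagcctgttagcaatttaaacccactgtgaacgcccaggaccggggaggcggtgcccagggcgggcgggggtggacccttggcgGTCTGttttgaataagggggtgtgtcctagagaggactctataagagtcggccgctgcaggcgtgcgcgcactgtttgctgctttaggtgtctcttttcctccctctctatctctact
Id4: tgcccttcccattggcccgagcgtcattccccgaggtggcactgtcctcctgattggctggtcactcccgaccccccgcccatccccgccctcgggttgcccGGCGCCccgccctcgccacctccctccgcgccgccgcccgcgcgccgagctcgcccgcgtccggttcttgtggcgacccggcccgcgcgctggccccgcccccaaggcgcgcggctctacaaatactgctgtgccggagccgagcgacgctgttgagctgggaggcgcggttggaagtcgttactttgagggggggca
Smad6: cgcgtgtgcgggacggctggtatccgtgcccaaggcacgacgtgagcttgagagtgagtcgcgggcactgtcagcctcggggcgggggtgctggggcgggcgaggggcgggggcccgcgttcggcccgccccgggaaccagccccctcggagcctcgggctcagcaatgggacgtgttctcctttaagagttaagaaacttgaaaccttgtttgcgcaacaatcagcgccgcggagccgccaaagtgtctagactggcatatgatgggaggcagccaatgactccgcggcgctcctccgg
Tgfbi: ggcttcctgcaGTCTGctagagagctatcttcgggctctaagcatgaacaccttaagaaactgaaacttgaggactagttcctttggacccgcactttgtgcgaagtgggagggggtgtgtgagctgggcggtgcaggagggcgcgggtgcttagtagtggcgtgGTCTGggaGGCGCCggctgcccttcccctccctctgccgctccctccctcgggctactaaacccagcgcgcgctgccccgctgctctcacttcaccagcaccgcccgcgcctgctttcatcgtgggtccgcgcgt
In the table of promoters 34 of the 46 members had an entry, and 12 had none (Bmp2, Bmp3, Bmp7, Tgfb3, Tgfbr3, Smad2, Smad4, Smad7, Id1, Nog, Fst and Skil). GGCGCC, which reads the same on both strands, lay at position −231 of Id2, −148 of Id4 and −77 of Tgfbi, counted back from the start site to the first base of the match. CAGAC lay at −167 on the gene's strand and −68 on the other strand of Id3, and at −239 and −85 on the other strand of Tgfbi. Neither set of letters was found in the Smad6 window. Across all 32851 windows of this length, searched on both strands, 11.9% held GGCGCC and 49.6% held CAGAC. Of the members called higher, 9 had a window, of which 1 held GGCGCC and 3 held CAGAC. Of the 4 called lower, 2 held GGCGCC and 2 held CAGAC. These matches describe the letters only.

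FPKM summed to 688190 to 838417 per library. Numbers of reads are unknown. Judged by the most frequent ratio to control 1 among rows low in both libraries, 1 fragment was worth 0.872 to 1.08 times its value in control 1. That ratio held for only 4.07% to 8.81% of those rows, so this is a rough estimate. Control 4 correlated least with the other controls (Pearson r = 0.931 and 0.922 across genes, which are not independent), and TNF 1 least with the other TNF libraries (0.912 and 0.909). The HBC label was checked on a list of 13 rows, of which 6 passed the test, all upward. Summed FPKM over that list was 893 to 3733 in controls, lowest in control 4, and 5629 to 8438 in TNF libraries. Krt5, the basal keratin, was at 151 to 344 FPKM in controls and 402 to 1011 FPKM in TNF libraries. Trp63, the transcription factor of basal cells, was at 68.6 to 86.1 FPKM in controls and 79.7 to 117 FPKM in TNF libraries. Neither Krt5 nor Trp63 passed the test (adjusted p = 0.110 and 0.196, limma). RNA of other cell types was also detected. Mature olfactory neuron markers summed to 3386 to 6657 FPKM in controls, 1150 in TNF 1, and 46.4 and 36.8 in TNF 3 and TNF 4, and all 10 fell. Macrophage and myeloid markers summed to 178, 196 and 1233 FPKM in control 1, 2 and 4 and to 41.7 to 106 in TNF libraries, and 7 of 10 fell. Sustentacular cell markers summed to 3066 to 5849 FPKM in controls and 1825 to 3046 FPKM in TNF libraries, and 6 of 8 fell. All 9 immature neuron markers, 3 of 3 T and NK cell markers tested and 4 of 5 B and plasma cell markers tested fell as well. In such bulk samples fewer cells of a type and less RNA per cell cannot be told apart.

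Most pathway genes that changed were higher in the TNF libraries. Of the 40 members tested, 14 rose and 4 fell (limma on log2(FPKM + 1), Benjamini-Hochberg adjusted p below 0.05 over all 15037 rows, n = 3 per group), where 10.9% of all rows rose and 27.2% fell. The median log2 change was 0.83 over the members and −0.22 over all rows. The groups did not overlap for 27 members, with TNF libraries above for 21 and below for 6, against 16.8% and 36.2% of all rows. How many members rose depended on the reference level. Scaled to HBC markers (the list above), which themselves were higher in TNF libraries, 2 members (Fst and Ltbp1) were higher and 11 lower (1.67% and 71.6% of all rows), and the median of all rows shifted from −0.22 to −1.55. The distance between the members' median and that of all rows was 1.04 as deposited and 0.99 under that scaling. Scaling by 1 factor per library shifts all rows by nearly the same amount. This distance could therefore hardly change, and it is no test of the members. Leaving out control 1, TNF 3 or TNF 4 gave 9 higher members each, against 6.35%, 5.41% and 6.01% of all rows. Leaving out TNF 1 gave 22 (13.7% of all rows), as did leaving out control 4 and TNF 1 together (19.8%). Without control 1, where 11.8% of all rows fell, Acvr2b was no longer called. With no filter on low values 10 members and 5.38% of all rows rose, and Inhba, Acvr1, Smad3 and Fstl1 lost their calls.

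**Figure D1:**
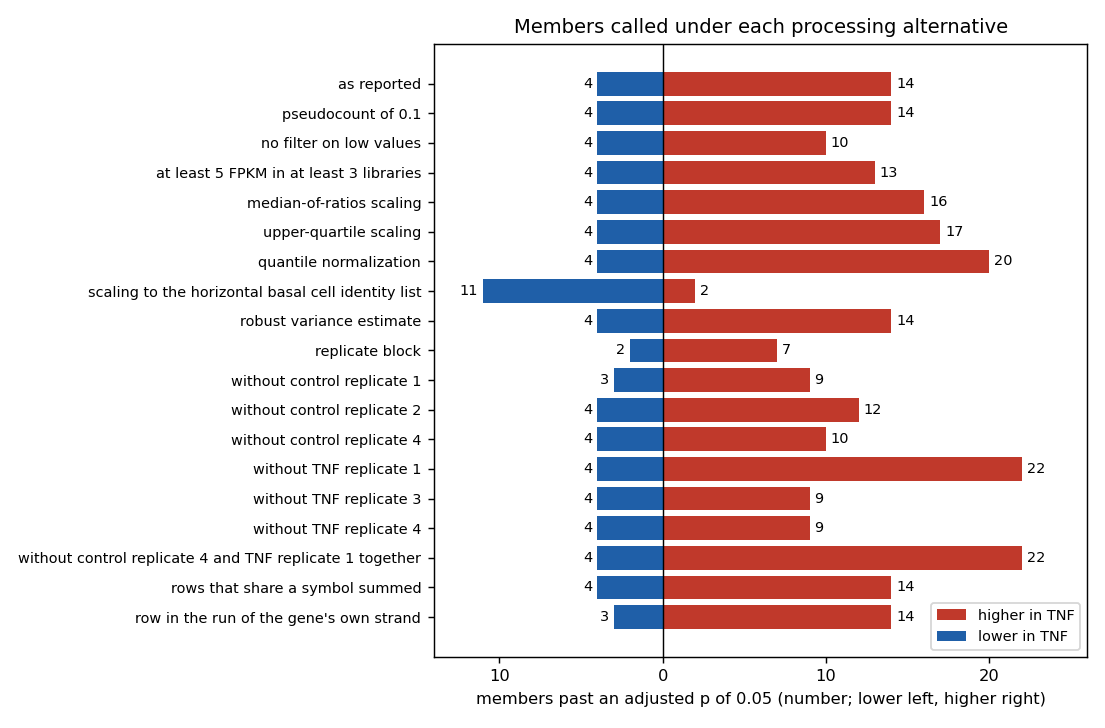
Number of members that passed the test upward (red, to the right) and downward (blue, to the left) as reported and under each of 18 alternatives. The counts are 14 and 4 as reported, 22 and 4 without TNF 1, and 2 and 11 after scaling to HBC markers.

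**Figure D2:**
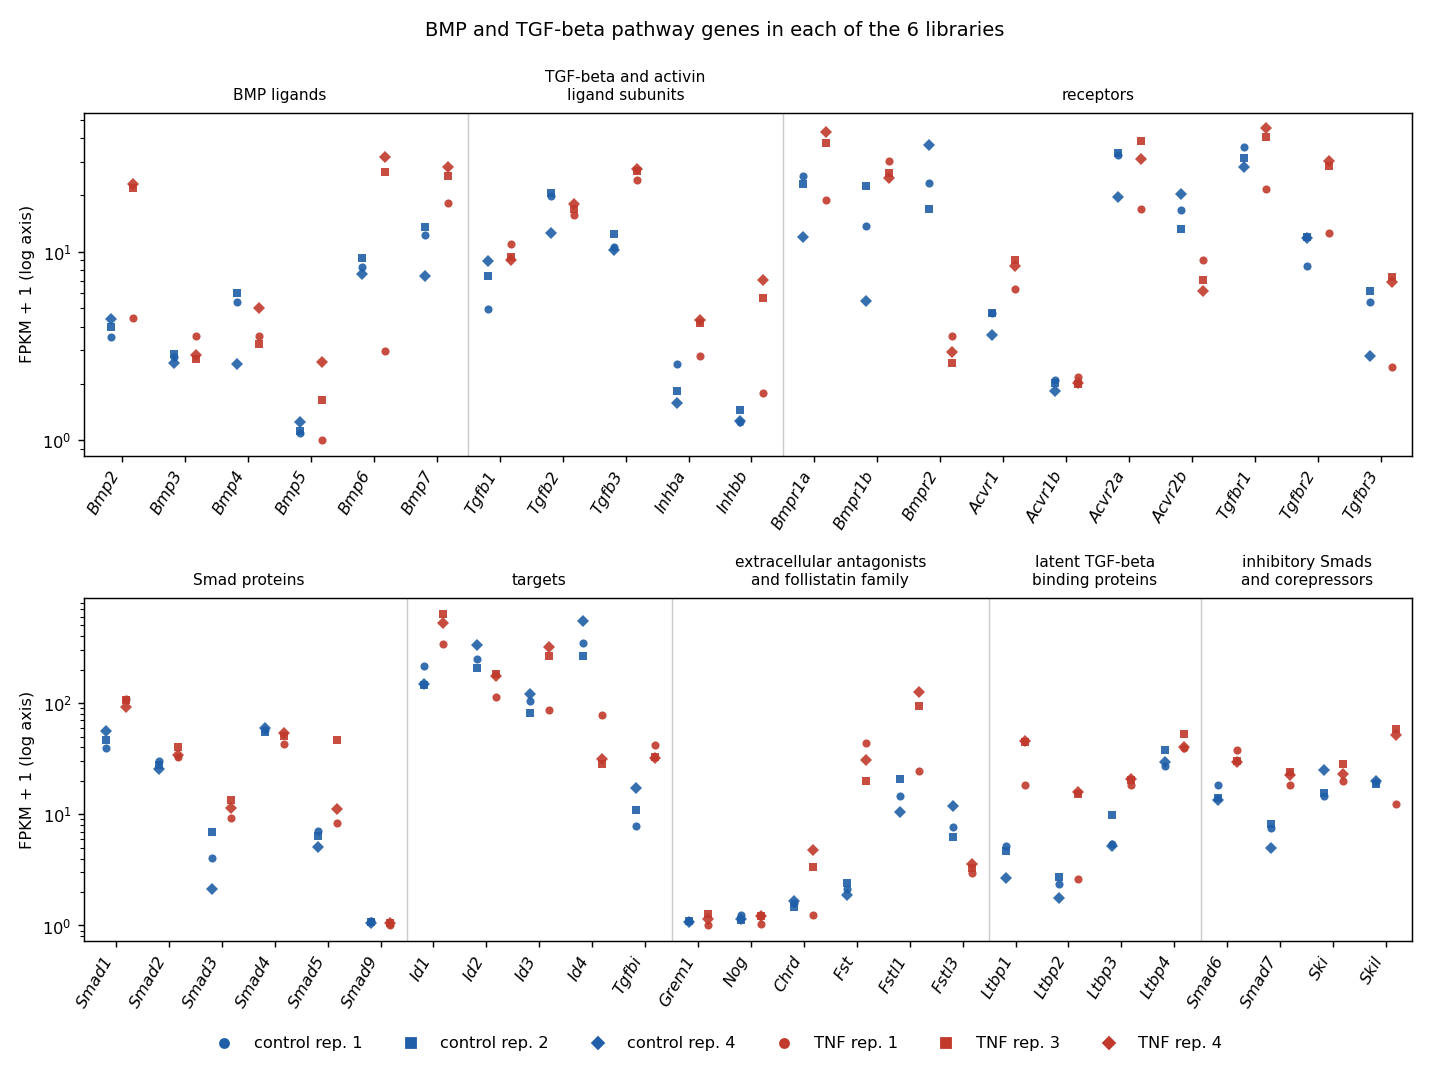
FPKM + 1 on a log axis for the 46 members, grouped by role, with 1 point per library (controls blue, TNF libraries red, marker shape by replicate). Fst lies at 0.869 to 1.41 FPKM in controls and 19.0 to 42.5 FPKM in TNF libraries, while Bmp6 is at 1.97 FPKM in TNF 1 and at 25.5 and 30.9 FPKM in TNF 3 and TNF 4.

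Among the BMP ligands Bmp7 alone passed the test. Bmp7 (chromosome 2, 172868012 to 172940321, mm10) was at 11.2, 12.4 and 6.46 FPKM in controls and at 17.0, 24.2 and 27.0 FPKM in TNF libraries, in the order of their numbers here and in all such lists. Every TNF library lay above every control, and the log2 change was 1.13 ± 0.29 (SE, adjusted p = 0.0230, limma). The call needed control 1, TNF 3 and TNF 4, each of which ended it when left out, and the change was −0.27 after scaling to HBC markers. Bmp2, a ligand of hair follicle and bone, was at 2.53, 2.98 and 3.42 FPKM in controls and at 3.45, 20.7 and 21.9 FPKM in TNF libraries. Its TNF 1 stood next to the controls and the other TNF libraries far above them, and the change of 1.72 ± 0.63 missed the threshold (adjusted p = 0.0718). For Bmp6 TNF 1 lay below the controls and the other TNF libraries above them, with 7.31, 8.23 and 6.65 FPKM in controls, 1.97 FPKM in TNF 1 and 25.5 and 30.9 FPKM in TNF 3 and TNF 4 (adjusted p = 0.562). Without TNF 1 both passed, with changes of 2.49 and 1.79, and Bmp2 also passed under quantile normalization. Bmp6 exons overlap those of Txndc5 on the other strand. Bmp3, which antagonizes other BMPs, stayed at 1.58 to 2.55 FPKM across the 6 libraries and Bmp4 at 1.52 to 5.04 FPKM (adjusted p = 0.602 and 0.759, limma), although Bmp3 passed upward under quantile normalization and Bmp4 downward after scaling to HBC markers. Bmp5 did not reach the minimum, with 0.0979 to 0.246 FPKM in controls, a listed 0 in TNF 1 and 0.638 and 1.61 FPKM in TNF 3 and TNF 4.

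Of the TGF-beta and activin genes, Tgfb3 and Inhba rose. Tgfb3 was at 9.58, 11.4 and 9.24 FPKM in controls and at 22.8, 25.6 and 26.3 FPKM in TNF libraries, without overlap. This was a change of 1.23 ± 0.17 on the log2 scale (adjusted p = 0.00207, limma), which became −0.18 after scaling to HBC markers. Tgfb3 exons overlap antisense genes. Tgfb1 was at 3.93, 6.42 and 7.90 FPKM in controls and 10.02, 8.36 and 7.98 FPKM in TNF libraries, groups that touch without overlapping (adjusted p = 0.189). Tgfb2 was the most abundant of the 3 TGF-beta ligand genes per transcript length in every control, at 11.5 to 19.4 FPKM in controls and 14.6 to 16.9 FPKM in TNF libraries (adjusted p = 0.931), and was called lower after scaling to HBC markers. Inhba encodes the subunit of activin A and was low, at 1.53, 0.820 and 0.575 FPKM in controls and 1.81, 3.20 and 3.34 FPKM in TNF libraries. Its change of 0.94 ± 0.27 (adjusted p = 0.0330) did not pass with any library except TNF 1 left out. Inhbb, the subunit of activin B, was under the minimum for testing, at 0.255, 0.443 and 0.264 FPKM in controls and 0.784, 4.65 and 6.06 FPKM in TNF libraries.

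Of the 10 receptors tested 1 rose and 2 fell, where 38.0% of all rows passed in either direction. Acvr1 (ALK2), a type I receptor for BMPs, was at 3.70, 3.71 and 2.62 FPKM in controls and 5.31, 8.06 and 7.37 FPKM in TNF libraries, a change of 0.86 ± 0.24 (adjusted p = 0.0282, limma). Acvr1 did not pass with any library except TNF 1 left out, and the change was −0.38 after scaling to HBC markers. Acvr2b, an activin type II receptor, fell from 15.6, 12.2 and 19.1 FPKM to 8.01, 6.11 and 5.19 FPKM, a log2 change of −1.16 ± 0.24 (adjusted p = 0.0107). Its partner type II receptor gene Acvr2a was at 18.5 to 32.1 FPKM in controls and 15.9 to 37.7 FPKM in TNF libraries (adjusted p = 0.973). The BMP type I receptors Bmpr1a and Bmpr1b were at 10.9 to 24.3 and 4.46 to 21.3 FPKM in controls, with control 4 lowest for both. In TNF libraries they were at 17.9 to 41.8 and 23.6 to 29.1 FPKM (adjusted p = 0.215 and 0.101). Bmpr1b passed without control 2 and Bmpr1a without TNF 1. Tgfbr2, the TGF-beta type II receptor, was at 7.43, 10.97 and 10.7 FPKM in controls and 11.5, 27.3 and 29.4 FPKM in TNF libraries (adjusted p = 0.0636). It passed without TNF 1 and under upper-quartile scaling and quantile normalization. Tgfbr1, the type I receptor, was at 27.0 to 34.6 FPKM in controls and 20.3, 39.2 and 43.9 FPKM in TNF libraries (change 0.10 ± 0.30, adjusted p = 0.820, limma), and it was called lower at −1.35 after scaling to HBC markers, as was Acvr2a at −1.46. Tgfbr3, the coreceptor betaglycan, was at 1.81 to 5.19 and 1.45 to 6.31 FPKM (adjusted p = 0.864), and Acvr1b at 0.828 to 1.09 and 0.998 to 1.17 FPKM (adjusted p = 0.778), which passed upward under quantile normalization alone.

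Bmpr2, the main type II receptor for BMPs (chromosome 1, 59762223 to 59879014), gave contradictory rows. The row of highest mean held 22.0, 15.9 and 35.6 FPKM in controls and 2.57, 1.55 and 1.93 FPKM in TNF libraries, a log2 change of −3.02 ± 0.32 (adjusted p = 0.000947, limma). A second row with the same name and bounds held 2.90, 2.19 and 2.85 FPKM in controls and 2.40, 1.503 and 1.78 FPKM in TNF libraries, a change of −0.34 ± 0.21 that did not pass (adjusted p = 0.241). The table gives no strand. In it the row of highest mean lies among genes of the other strand in GENCODE M21 (19 of its 20 nearest rows), while all 20 neighbours of the second row are on the strand of Bmpr2. For the other 45 members the row used lies among genes of its own strand. Summed over its rows Bmpr2 fell by 2.47 on the log2 scale (adjusted p = 0.00160). The fall therefore rests on a row whose strand is in doubt, and with the second row in its place 3 members were lower.

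Among the Smad genes Smad1 and Smad3 rose. Smad1, a BMP receptor Smad (chromosome 8, 79338395 to 79399518), was at 38.6, 45.9 and 55.2 FPKM in controls and 107, 106 and 92.1 FPKM in TNF libraries. The groups were well apart, with means of 46.5 ± 8.32 and 102 ± 8.41 FPKM (SD, n = 3 each) and a log2 change of 1.12 ± 0.18 (adjusted p = 0.00348, limma), which was −0.36 after scaling to HBC markers. Smad3, a TGF-beta and activin Smad, was at 3.07, 5.94 and 1.11 FPKM in controls and 8.26, 12.3 and 10.4 FPKM in TNF libraries. Its change of 1.52 ± 0.44 (adjusted p = 0.0331) was not called without control 1 or 4 or without TNF 3 or 4. Smad2, its close relative, was at 24.8 to 29.0 FPKM in controls and 31.9 to 39.1 FPKM in TNF libraries, a change of 0.36 ± 0.16 that missed the threshold (adjusted p = 0.120, limma). It passed under median-of-ratios, upper-quartile and quantile scaling with changes of 0.51 to 0.57, and was called lower at −1.10 after scaling to HBC markers. The common partner Smad4 was at 53.4 to 58.4 FPKM in controls and 41.7 to 52.7 FPKM in TNF libraries (change −0.23 ± 0.15, adjusted p = 0.279) and was called lower at −1.70 after scaling to HBC markers. Smad5 was at 4.06 to 6.05 FPKM in controls and at 7.41, 45.3 and 10.2 FPKM in TNF libraries, with TNF 3 far above the rest (adjusted p = 0.117). Smad9 was at 0.00858 to 0.0873 FPKM in the 6 libraries and was not tested.

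The inhibitory Smad genes rose together. Smad7, which blocks TGF-beta and BMP receptors (chromosome 18, 75367387 to 75395935), was at 6.55, 7.21 and 4.01 FPKM in controls and 17.2, 22.8 and 21.5 FPKM in TNF libraries, a change of 1.66 ± 0.25 (adjusted p = 0.00296, limma). Smad6, which acts mainly on BMP signals and whose promoter is printed above, was at 17.5, 13.0 and 12.3 FPKM in controls and 36.6, 29.3 and 28.8 FPKM in TNF libraries (1.10 ± 0.20, adjusted p = 0.00574). Neither gene showed overlap between groups, and TNF 1 was as high as the other TNF libraries for Smad6. Both calls held without any 1 library. After scaling to HBC markers Smad7 was at 0.30 and Smad6 at −0.34, and neither passed. The Smad corepressor Ski was at 13.7 to 24.0 and 19.0 to 27.2 FPKM (adjusted p = 0.277). Its relative Skil was at 17.5 to 18.8 FPKM in controls, 11.4 FPKM in TNF 1 and 57.4 and 50.8 FPKM in TNF 3 and TNF 4 (adjusted p = 0.314).

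**Figure D3:**
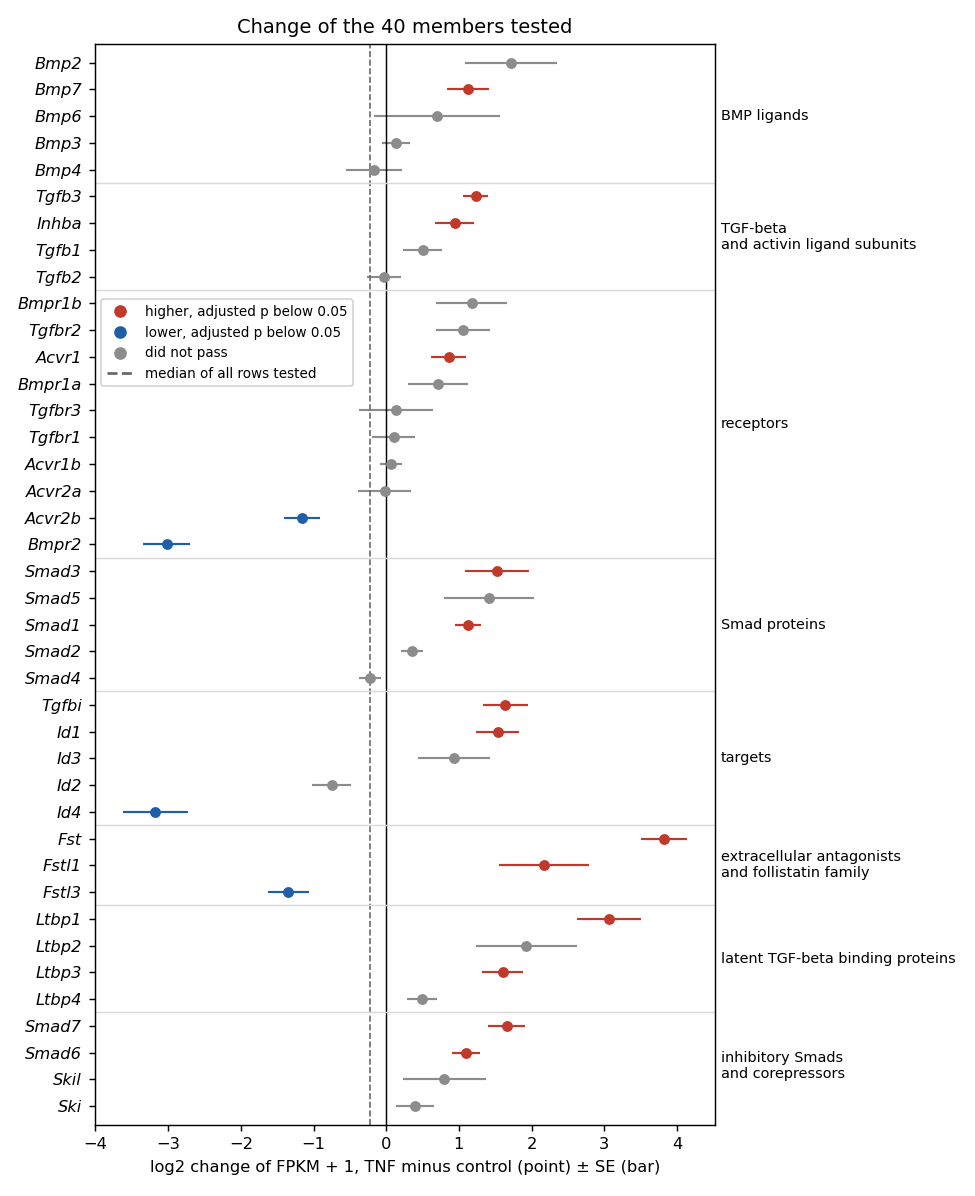
The log2 change of FPKM + 1, TNF minus control, for the 40 members tested by role, with bars of 1 SE. Red points passed the test upward and blue points downward, grey points did not pass, and the dashed line at −0.22 is the median of all rows tested. Fst (3.82) and Ltbp1 (3.06) lie farthest to the right, Id4 (−3.18) and Bmpr2 (−3.02) farthest to the left.

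The Id genes encode helix-loop-helix proteins that hold back differentiation factors, and they divided. Id1 (chromosome 2, 152736251 to 152737410) was at 216, 145 and 149 FPKM in controls and 339, 637 and 528 FPKM in TNF libraries, the highest TNF levels of any member. Its log2 change was 1.53 ± 0.29 (adjusted p = 0.00728, limma), though it was at 0.03 after scaling to HBC markers. Id4 (listed at chromosome 13, 48044231 to 48264521, a stretch that takes in antisense genes) was at 347, 265 and 550 FPKM in controls and 76.5, 27.1 and 30.7 FPKM in TNF libraries. Its change was −3.18 ± 0.45 (adjusted p = 0.00226), a fall of 8.65-fold in mean FPKM, and the highest of its TNF libraries was replicate 1. Mature olfactory neuron markers moved the same way as Id4, the median of the list standing at −1.89, −6.53 and −6.60 in TNF 1, TNF 3 and TNF 4 against the mean of the controls, and immature neuron markers likewise (−4.17, −5.38 and −5.45). Their part in the fall of Id4 was not tested. Id2 was at 247, 207 and 333 FPKM in controls and 112, 180 and 176 FPKM in TNF libraries. All its TNF libraries lay below all controls, yet the change of −0.75 ± 0.27 missed the threshold (adjusted p = 0.0686). It was called lower after scaling to HBC markers. Id3 was at 105, 79.8 and 121 FPKM in controls, 85.4 FPKM in TNF 1 and 262 and 316 FPKM in TNF 3 and TNF 4, a change of 0.93 ± 0.49 that did not pass (adjusted p = 0.180).

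Tgfbi, an extracellular matrix protein named for its induction by TGF-beta, was at 6.77, 9.94 and 16.4 FPKM in controls and 41.2, 31.7 and 31.2 FPKM in TNF libraries. TNF 1 was the highest of all, and the rise of 1.64 ± 0.31 (adjusted p = 0.00704, limma) held without any 1 library. It was at 0.21 after scaling to HBC markers and did not pass there.

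The secreted antagonists held the member with the largest change. Fst encodes follistatin, which binds activins and some BMPs (chromosome 13, 114452262 to 114458800). It was at 1.12, 1.41 and 0.869 FPKM in controls and 42.5, 19.0 and 29.9 FPKM in TNF libraries, 26.9-fold higher in mean FPKM. The log2 change was 3.82 ± 0.32 (adjusted p = 0.000476, limma), and it remained past the threshold in every alternative run. Fst exons overlap those of Gm47040 on the other strand. Fstl3, a follistatin-like binder of activin, moved the other way, from 6.63, 5.27 and 10.98 FPKM to 1.96, 2.32 and 2.55 FPKM (−1.35 ± 0.28, adjusted p = 0.0105), and its exons overlap those of Prss57. Fstl1, a secreted glycoprotein, was at 13.7, 19.8 and 9.44 FPKM in controls and 23.7, 92.9 and 125 FPKM in TNF libraries. Its change of 2.17 ± 0.62 (adjusted p = 0.0311) did not pass with any library except TNF 1 left out. The classic BMP antagonists were scarce and not tested. Nog (noggin) was at 0.0336 to 0.247 FPKM across libraries, and Grem1 (gremlin) at 0.0858 to 0.0982 FPKM in controls and 0.257 and 0.135 FPKM in TNF 3 and TNF 4, with a listed 0 in TNF 1. Chrd (chordin) was at 0.461 to 0.646 FPKM in controls, 0.235 FPKM in TNF 1 and 2.38 and 3.77 FPKM in TNF 3 and TNF 4.

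Genes of the latent TGF-beta binding proteins were higher for Ltbp1 and Ltbp3. Ltbp1, which tethers latent TGF-beta to the matrix (chromosome 17, 75005568 to 75392512), was at 4.16, 3.63 and 1.65 FPKM in controls and 17.3, 43.6 and 44.5 FPKM in TNF libraries. That is 11.2-fold in mean FPKM and 3.06 ± 0.44 on the log2 scale (adjusted p = 0.00238, limma), a call that held in every alternative run. Ltbp3 was at 4.43, 8.95 and 4.19 FPKM in controls and at 17.4, 19.2 and 19.98 FPKM in TNF libraries (1.60 ± 0.29, adjusted p = 0.00566), and it did not pass after scaling to HBC markers (0.25). Ltbp2 was at 1.36, 1.75 and 0.766 FPKM in controls, at 1.64 FPKM in TNF 1 and at 14.1 and 14.9 FPKM in TNF 3 and TNF 4 (adjusted p = 0.0686, limma), and it passed without TNF 1 and under quantile normalization. Ltbp4 was the most abundant of the 4 per transcript length in every control library, at 25.9 to 36.6 FPKM, and was at 38.4 to 51.7 FPKM in TNF libraries (0.49 ± 0.20, adjusted p = 0.0976), and passed under median-of-ratios and upper-quartile scaling.

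TNF libraries were not alike for many members. The 14 members that rose were above all controls in each TNF library, and their median level relative to the control mean was 1.22, 1.58 and 1.52 on the log2 scale in TNF 1, TNF 3 and TNF 4. For 7 of the 40 members tested (Bmp6, Bmpr1a, Tgfbr1, Tgfbr3, Id3, Ltbp2 and Skil) TNF 3 and TNF 4 exceeded every control while TNF 1 did not. This was 17.5% of the members and 8.23% of all rows. Of these, Bmp6, Bmpr1a, Id3, Ltbp2 and Skil passed when TNF 1 was left out. The summed levels of fibroblast and of endothelial markers were likewise lowest in TNF 1 and highest in TNF 3 and TNF 4, although Col1a1, Pi16 and Cldn5 were each highest in a control. Over 10 fibroblast markers summed FPKM was 138 to 527 in controls, 41.6 in TNF 1 and 1073 and 1540 in TNF 3 and TNF 4, with Dpt and Mfap5 listed at 0 in TNF 1. Over 10 endothelial markers it was 37.0 to 48.9 in controls, 4.41 in TNF 1 and 111 and 170 in TNF 3 and TNF 4, with Kdr listed at 0 in TNF 1. Pericyte and smooth muscle markers had medians of −1.96, 1.58 and 2.15 in TNF 1, TNF 3 and TNF 4 on the log2 scale against the control mean. Rgs5 of that list was higher in every TNF library and passed upward. Of the 6 fibroblast markers tested Pi16 alone passed, downward, and it reached the minimum for testing only through the controls. The 4 not tested were Pdgfra, Dpt, Col6a3 and Mfap5. They were at 0.0617 to 0.639 FPKM in controls, 0 to 0.143 FPKM in TNF 1 and 3.09 to 34.9 FPKM in TNF 3 and TNF 4. The part of these cells in the levels of Bmp2, Bmp6, Fstl1, Ltbp1 and Ltbp2 was not tested. Of the 14 that rose, Fst, Smad1, Smad6 and Tgfbi were highest among TNF libraries in TNF 1, the library lowest in summed fibroblast and endothelial markers. For Smad1 TNF 1 and TNF 3 were nearly level (107 and 106 FPKM). Bmp7, Tgfb3, Inhba, Acvr1, Smad3, Id1, Fstl1, Ltbp1, Ltbp3 and Smad7 were lowest among TNF libraries there.

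**Figure D4:**
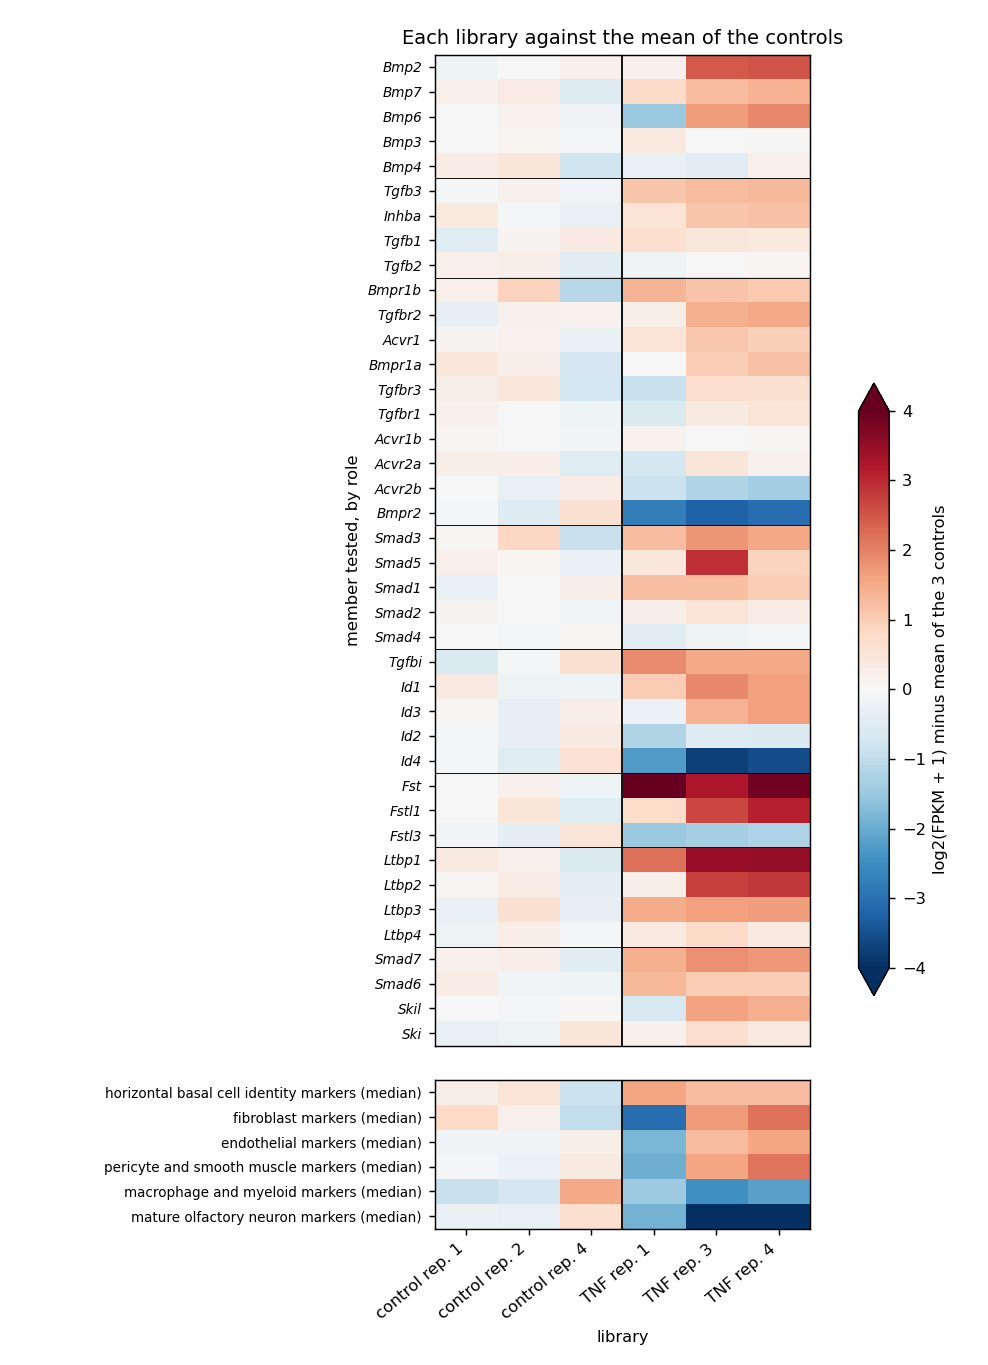
Each library's log2(FPKM + 1) minus the mean of the 3 controls for the 40 members tested, with the medians of 6 marker lists below, on a colour scale from −4 (blue) to 4 (red). Bmp6, Id3 and Skil are blue or pale in TNF 1 and red in TNF 3 and TNF 4, as are the fibroblast, endothelial and pericyte and smooth muscle medians. Fst, Smad1, Smad6 and Tgfbi are red in all 3 TNF libraries.

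Other genes of the pathways were read from a list of 99 further names, of which 66 were tested. There 19 rose and 5 fell, where 10.9% and 27.2% of all rows did. After scaling to HBC markers 1 of 67 tested was higher and 25 were lower, against 1.67% and 71.6% of all rows. Under quantile normalization 23 were higher and 2 lower, against 17.7% and 19.1%. The counts by class below stand against the same 10.9% higher and 27.2% lower, and no difference between classes was tested. The median log2 change was 0.44, and 3 of the names also stand in a marker list. TNF 3 and TNF 4 exceeded every control while TNF 1 did not for 16 of the 66 tested (24.2%), against 8.23% of all rows. Of 8 genes that process, hold, release or activate latent TGF-beta 5 were higher, among them the integrin subunit genes Itgav (1.59 ± 0.33) and Itgb6 (1.56 ± 0.37). The integrin subunit Itgb8, which activates TGF-beta, was at 0.520 to 0.766 FPKM in controls and 5.03, 13.7 and 12.8 FPKM in TNF libraries (2.68 ± 0.37, adjusted p = 0.00208, limma). The membrane protease Mmp14 went from 41.5 ± 11.3 to 131 ± 3.51 FPKM (SD, n = 3 each, adjusted p = 0.00151) and the proprotein convertase Furin from 15.0 ± 3.996 to 34.96 ± 4.42 FPKM (adjusted p = 0.00856), the latter at −0.25 after scaling to HBC markers. Among 9 extracellular inhibitors and binding proteins tested 3 were higher, namely Nbl1 (1.59 ± 0.49), Bmper (1.37 ± 0.20) and the fibrillin gene Fbn1 (1.91 ± 0.41). Nbl1 was at 24.3 to 30.2 FPKM in controls and 36.6, 104 and 153 FPKM in TNF libraries (adjusted p = 0.0421, limma). Of 6 further ligands Bmp1, in fact a procollagen protease, rose by 1.67 ± 0.26 on the log2 scale, while Gdf11 and Gdf15 changed by −0.92 ± 0.15 and −1.31 ± 0.32.

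Of 7 further receptors and coreceptors, Neo1, a receptor for repulsive guidance molecules, rose by 1.85 ± 0.31, and Rgma, a BMP coreceptor of that family, changed by −1.84 ± 0.30 (adjusted p = 0.00429 and 0.00385, limma). Among 19 intracellular regulators 4 were higher and 2 lower, against 10.9% and 27.2% of all rows. The higher ones were the ubiquitin ligase genes Nedd4l (1.39 ± 0.22) and Smurf1 (0.79 ± 0.20) and the Smad corepressor genes Tgif1 (1.74 ± 0.30) and Tgif2 (1.40 ± 0.25), and the lower ones the phosphatase gene Ppm1a (−0.51 ± 0.15) and Tgfbrap1 (−1.0002 ± 0.22). Of 17 target genes 5 rose, Junb (1.32 ± 0.38) among them. Klf10, the TGF-beta-inducible early gene, rose by 1.52 ± 0.28, the cell cycle inhibitor Cdkn2b by 1.95 ± 0.27 and the circadian repressor gene Bhlhe40 by 2.26 ± 0.52. Skp1a, counted in that list, is not a known target and did not pass (adjusted p = 0.0680, limma). Nor did Ctgf and Atoh8, chosen here after their values were seen. Ctgf was at 15.0 to 54.6 FPKM in controls and 17.1 to 66.1 FPKM in TNF libraries (adjusted p = 0.823). Atoh8, a BMP target, was at 1.32 to 1.63 FPKM in controls and at 0.955, 4.43 and 6.22 FPKM in TNF libraries (adjusted p = 0.226).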

How the data were processed

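The authors deposited FPKM per gene, 1 column per library. Per the submitters' processing notes the build was mm10 and the tools included TopHat2 2.1.1, Cuffdiff 2.2.1, FastQC 0.10.1 and bcl2fastq, in an order and with settings that no source used here states. Per the labels' protocols each library was amplified from 5 ng of RNA of RIN above 7 with a kit that does not mark strand, so overlapping genes cannot be told apart for 15 members. FPKM were tested here as log2(FPKM + 1) with limma 3.58.1 (mean-variance trend, R 4.3.3), which understates changes of low genes, on the 15037 rows that reached 1 FPKM in 3 or more libraries, with Benjamini-Hochberg adjustment and a threshold of 0.05. No label says that each library is a separate animal, so p-values measure the spread between these samples. Every member is accounted for; of the 99 wider genes, the up to 3 of each class with the smallest p past the threshold are named by rule, and others named were chosen after their values were seen. Members and lists were chosen with earlier results of these data known. The fit was tested on simulated data with 200 genes changed, far fewer than were called here. There it recovered 17.25% of log2 changes of 1, 68.5% of changes of 2 and 91% of changes of 4. Of its calls 5.51% were false. Alternatives were 18 other settings of scaling, filter, pseudocount, variance, pairing, row choice and libraries. Not every gene called in the wider list is reported here.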

Additional observations from a re-analysis of the deposited data

How the results depend on the processing

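Of the 18 members called, Id4, Fst and Ltbp1 kept call and direction under every alternative, and Tgfbi, Ltbp3 and Smad7 under all but scaling to HBC markers. That scaling gave 2 members higher and 11 lower, and 1 and 25 genes of the wider list. It turned Bmp7 to −0.27, Tgfb3 to −0.18, Acvr1 to −0.38, Tgfbr1 to −1.35, Smad1 to −0.36, Smad2 to −1.10, Smad6 to −0.34 and Furin to −0.25. Leaving out 1 library gave 9 to 22 members higher and 3 to 4 lower, and 11 to 24 and 1 to 5 wider genes; leaving out control 4 and TNF 1 together gave 22 members and 33 wider genes higher. Wider genes lower were 3 with a 5 FPKM filter and 2 under quantile normalization. A replicate block gave 7 members higher and 2 lower (4.95% and 14.9% of all rows), and 12 and 3 wider genes. The groups share only the numbers 1 and 4, and deviations of same-numbered libraries correlated at −0.064 and −0.087, so the numbers were not taken as pairing. Scaling to HBC markers divides each library by 1 factor, which lowered all rows by nearly the same amount (median of all rows −0.22 as deposited, −1.55 scaled). The cause of the other shifts was not tested. The unknown read depth limits what can be said of genes near 0.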

Other observations

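Among the wider genes below the minimum for testing, 4 exceeded 2 FPKM in TNF 4, a limit chosen after their values were seen. Gdf10, a BMP family ligand, was at 0.0942 to 0.586 FPKM in controls, listed at 0 in TNF 1 and then 8.51 and 11.9 FPKM in the other TNF libraries. Hamp, the hepcidin gene, was at 0 to 0.427 FPKM in controls and at 0.234, 5.90 and 7.11 FPKM in TNF 1, TNF 3 and TNF 4. Snai1 was at 0.480 to 0.641 FPKM in controls and at 0.0393, 2.94 and 3.29 FPKM in TNF libraries, and Tll1, a procollagen protease gene, at 0.0559 to 0.0927 and at 0.0201, 2.79 and 4.19 FPKM. TNF 1 lay at or below the highest control for all 4, which largely followed from how they were chosen. With TNF 3 and TNF 4 above 1 FPKM and the minimum for testing not reached, TNF 1 and every control had to lie below 1 FPKM. Fibroblast and endothelial markers differed between the same TNF libraries, and their part in these levels was not tested.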
